A study of Mus musculus with 6 samples.

Results

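The Slit and Robo genes measured here were 9 genes in 3 roles: the receptors Robo1, Robo2 and Robo3, the ligands Slit1, Slit2 and Slit3, and the intracellular effectors Srgap1, Srgap2 and Srgap3. They were taken by symbol from the array annotation, a choice made with earlier results of these data known, and were represented by 10 probe sets of the 28815 in the table, each probe set being a group of probes summarised into a single value per array. Srgap3 had 2 probe sets and every other gene had 1, and 0 probe sets of these genes shared an annotation with another symbol. The tissue was cervical spinal cord from mouse embryos of embryonic day 11.5, with the dorsal cord and the floor plate removed, and the embryos were labelled Nkx2.9 knockout (3 arrays, called KO A, KO B and KO C here after their labels) or wild type (3 arrays, WT A, WT B and WT C). The sources used here did not give the allele, the strain or whether an array held 1 embryo or a pool. The study was set up to find genes downstream of Nkx2.9, a homeodomain transcription factor of ventral progenitors, as spinal accessory motor neurons develop.

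Slits are secreted proteins that repel axons and migrating cells carrying Robo receptors, and in the embryonic cord they are made by the floor plate and by motor neurons. Robo1 and Robo2 bind Slits and keep commissural axons from crossing the midline again, while Robo3 in commissural neurons opposes that repulsion until the axon has crossed. The srGAP proteins bind the cytoplasmic tail of Robo and link the receptor to the actin cytoskeleton. Slit and Robo signalling has also been tied to the exit of spinal accessory motor axons through the lateral wall of the cord, which is why these genes bear on the aim of the study.

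The bases before the start sites of the genes that carry the largest differences are given here, since Robo2 had 1 probe set for its several annotated starts. RefSeq listed 10 start sites for 8 of the 9 genes on the mouse build GRCm38.p6, all genes but Slit1, and 3 of the start sites belonged to Robo2. Each sequence is the 250 bases before a start site, 5′ to 3′ on the strand of the gene, and capitals mark CANNTG, the E-box bound by basic helix-loop-helix factors. The Robo2 windows lie at chr16:75447294-75447543, chr16:75092771-75093020 and chr16:74411826-74412075 on the minus strand, that of Robo1 at chr16:72662899-72663148 on the plus strand, and that of Slit3 at chr11:35121206-35121455 on the plus strand.
Robo2 start 1: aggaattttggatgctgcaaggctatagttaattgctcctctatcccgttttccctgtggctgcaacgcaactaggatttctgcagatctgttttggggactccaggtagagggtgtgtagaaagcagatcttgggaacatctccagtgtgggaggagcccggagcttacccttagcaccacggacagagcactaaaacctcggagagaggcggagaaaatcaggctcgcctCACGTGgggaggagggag
Robo2 start 2: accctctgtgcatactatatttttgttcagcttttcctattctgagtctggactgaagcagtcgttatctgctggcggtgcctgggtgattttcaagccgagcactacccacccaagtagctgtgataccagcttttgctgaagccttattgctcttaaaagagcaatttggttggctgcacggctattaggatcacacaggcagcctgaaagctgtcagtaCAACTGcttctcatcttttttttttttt
Robo2 start 3: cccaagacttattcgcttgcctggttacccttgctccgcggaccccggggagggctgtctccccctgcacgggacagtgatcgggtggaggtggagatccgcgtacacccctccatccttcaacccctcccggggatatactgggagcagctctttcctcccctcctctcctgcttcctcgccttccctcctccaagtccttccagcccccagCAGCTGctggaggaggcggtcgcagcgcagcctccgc
Robo1: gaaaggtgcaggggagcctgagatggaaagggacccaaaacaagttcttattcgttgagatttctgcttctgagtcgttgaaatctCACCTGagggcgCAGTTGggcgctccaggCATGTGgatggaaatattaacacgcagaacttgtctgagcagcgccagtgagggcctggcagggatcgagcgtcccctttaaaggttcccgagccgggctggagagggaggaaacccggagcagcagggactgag
Slit3: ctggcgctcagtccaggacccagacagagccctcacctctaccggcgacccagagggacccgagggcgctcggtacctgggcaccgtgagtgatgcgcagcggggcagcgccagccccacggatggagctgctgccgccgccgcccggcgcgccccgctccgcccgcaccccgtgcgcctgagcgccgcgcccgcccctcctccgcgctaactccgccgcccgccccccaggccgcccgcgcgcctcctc
Each Robo2 window held 1 E-box of different letters, CACGTG at 18, CAACTG at 28 and CAGCTG at 37 bases before the start. The Robo1 window held 3 and the Slit3 window held 0. An E-box on either strand was present in 7 of the 10 windows of the family and in 66.2% of 32536 distinct windows of the same length over all genes. AAGTG, the core letters bound by NK2 homeodomain proteins, was searched on both strands and was in 0 of the 10 windows, against 40.6% of all windows. The longer form TNAAGTG, which contains AAGTG, was likewise in 0 of the 10 windows, against 10% of all. These are matches of letters in 250 bases and say nothing of binding. The windows differed in base composition, with 78.8% G and C before Slit3, 56% before Robo1 and 53.2%, 44.8% and 65.6% before the Robo2 starts, where the median over all windows was 52.4%. Robo1 and Robo2 were next to each other among the protein-coding genes of chromosome 16.

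The deposited log2 values had been centred on each probe set's median over the 6 arrays, so a value is the distance of an array from that median. Differences between arrays can be read from them, but not the level of a gene, and the markers of the labelled tissue could not be checked for presence. Nkx2-9 itself stood at -0.071, 0.26 and 0.11 on arrays KO A, KO B and KO C and at -0.21, 0.071 and -0.11 on WT A, WT B and WT C, a difference of 0.18 (SE 0.11, adjusted p = 0.812 in limma), so the targeted gene was not lower in the arrays that the labels call knockout. Probes outside the deleted part of the gene would check nothing, and their position was not known. Every direction below therefore rests on the labels, and KO stands for the label alone. Xist, the RNA of the inactive X chromosome, stood at 4.56 and 4.91 on KO B and KO C and between -0.25 and 0.11 on the other arrays. With 3 arrays a group the number of arrays limits the precision, and p-values measure only the spread between these arrays, which may be technical.

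In limma, 0 of the Slit and Robo probe sets reached an adjusted p under 0.05, and of all 28815 probe sets 0% did. At an unadjusted p under 0.05 there were 1605 in limma, and the unequal-variance test gave 928 at that level and 0 after adjustment. Of the 10 Slit and Robo probe sets 1 was lower in the KO arrays at an unadjusted p under 0.05, Robo2, where 2.5% of all probe sets were, and 1 was higher, Slit3, where 3.07% of all were. In 0 of the 10 did the KO arrays all lie on one side of the wild type, while over the whole table this was so for 10.9% of 28791 complete probe sets. Their median log2 difference, labelled knockout minus wild type, was 0.038, with 6 higher and 4 lower, beside 0.0087 over all probe sets. Their differences were larger than those of a typical probe set, with a median size of 0.15 against 0.053. All genes but Srgap3 also varied more within groups than a typical probe set. Their pooled SDs within groups exceeded those of 69.3% (Srgap2) to 99.1% (Robo2) of probe sets, against 2.39% and 26.9% for Srgap3. By role the median difference was -0.20 for the receptors, with 2 of 3 lower, and 0.15 for the ligands, with 2 of 3 higher. For the effectors it was 0.038, with 3 of 4 probe sets higher. In whole tissue, fewer cells of a type and less RNA per cell cannot be told apart.

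**Figure D1:**
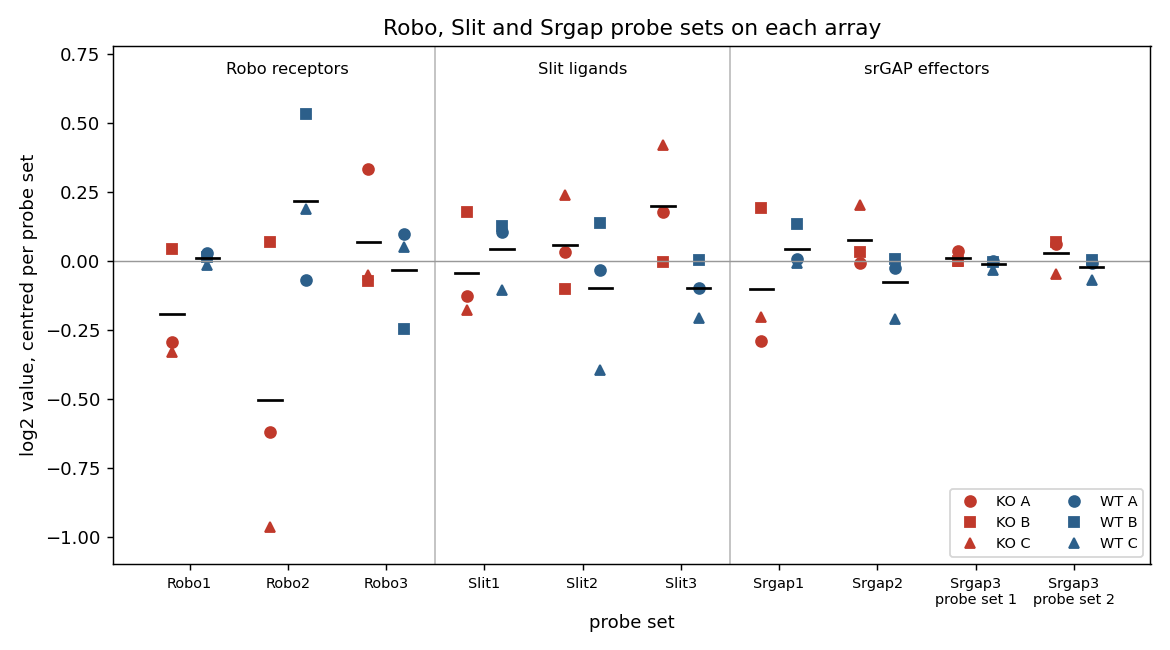
Log2 values, centred per probe set, of the 10 Robo, Slit and Srgap probe sets on each of the 6 arrays, with KO arrays in red, wild type in blue, the letter as the symbol and a bar at the mean of each group (n = 3). The values of Robo2 run from -0.97 to 0.53, while Srgap3 probe set 1 spans 0.069, and in each of the 10 the groups overlap.

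Robo2, the Slit receptor with the widest spread of the family, stood at -0.62 on KO A, 0.068 on B and -0.97 on C, and at -0.068, 0.53 and 0.19 on WT A, WT B and WT C. The arrays KO A and KO C were below every WT array, whereas KO B lay between WT A and WT C, so the groups overlapped. On KO C that value was among the lowest of all, with 0.104% of probe sets on the same array below it, and on KO A 0.198% were below. The means were -0.51 ± 0.53 and 0.22 ± 0.30 (SD, n = 3 each), a difference of -0.72 (SE 0.28, 95% interval -1.40 to -0.049), or 1.65-fold lower in KO. It did not pass over all probe sets (limma adjusted p = 0.812), and an exact two-sided permutation test gave p = 0.2, where 3 arrays against 3 cannot go below 0.1. Its unadjusted p of 0.0392 in limma rose to 0.0556 with array weights and to 0.125 with the unequal-variance test. In limma it fell to 0.0328 with quantile normalization and to 0.0061 with the array letter as a block. It also fell to 0.0378 without WT A and to 0.0029 without KO B, the array that broke the order. It was 0.104 without KO A, 0.106 without KO C, 0.117 without WT B and 0.0807 without WT C in limma, the difference being -0.49 without KO C. Robo2 varied more within groups than 99.1% of probe sets, with a pooled SD of 0.43.

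Robo1, the other main Slit receptor of these axons, stood at -0.29, 0.044 and -0.33 on arrays KO A, KO B and KO C and at 0.029, 0.016 and -0.016 on the WT arrays. The WT arrays lay close together (SD 0.023), KO A and KO C lay below them, and KO B lay above them. The difference was -0.20 (SE 0.10, 95% interval -0.45 to 0.043, limma adjusted p = 0.812; exact two-sided permutation p = 0.4), 1.15-fold. It was -0.13 without KO C, -0.15 without KO A and -0.32 without KO B.

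Robo3, the receptor of commissural axons before crossing, did not share that order. It was at 0.33, -0.072 and -0.051 on arrays KO A, KO B and KO C and at 0.099, -0.25 and 0.051 in the wild type, highest on KO A and lowest on WT B. The difference of 0.10 (SE 0.14, 95% interval -0.24 to 0.44, limma adjusted p = 0.912) turned to -0.030 without KO A and to -0.0054 without WT B. The median of 8 commissural neuron genes lay between -0.13 and -0.019 on the KO arrays and between -0.024 and 0.057 on the WT arrays. Of the 8, 5 were lower, where 45% of all probe sets were. At an unadjusted p under 0.05 in limma 2 were lower and 1 was higher, where 2.5% and 3.07% of all were. After adjustment 0 passed, and the part of these genes in the Robo3 values was not tested.

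Slit3, a ligand of Robo1 and Robo2, had the largest difference among the ligands. It was at 0.18, -0.0045 and 0.42 on arrays KO A, KO B and KO C and at -0.097, 0.0045 and -0.21 on WT A, WT B and WT C. KO A and KO C were above every WT array, and KO B fell just under WT B. The difference was 0.30 (SE 0.11, 95% interval 0.021 to 0.57, limma adjusted p = 0.812), 1.23-fold higher in the KO arrays, and the exact two-sided permutation test gave p = 0.2. Without KO C it was 0.19. Its unadjusted p of 0.0386 in limma rose to 0.120 with the unequal-variance test. In limma it fell to 0.0310 with quantile normalization and to 0.0085 without KO B. It was 0.0771 without KO A, 0.0823 without KO C, 0.0844 without WT A and 0.116 without WT C in limma.

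Slit2, a ligand that the floor plate and motor neurons make, was at 0.034, -0.10 and 0.24 on arrays KO A, KO B and KO C and at -0.034, 0.14 and -0.39 in the wild type. WT C was the lowest array by far, and the difference of 0.15 (SE 0.15, 95% interval -0.21 to 0.52, limma adjusted p = 0.863) was 0.0057 without it and 0.27 without WT B. Slit1, the ligand most confined to nervous tissue, was at -0.13, 0.18 and -0.18 on the KO arrays and at 0.11, 0.13 and -0.11 in the wild type. Its difference was -0.086 (SE 0.11, 95% interval -0.36 to 0.19, limma adjusted p = 0.907) and ran from -0.20 to -0.018 with single arrays left out, the smallest without KO C. The 3 ligands had differences of both signs, none past the threshold.

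**Figure D2:**
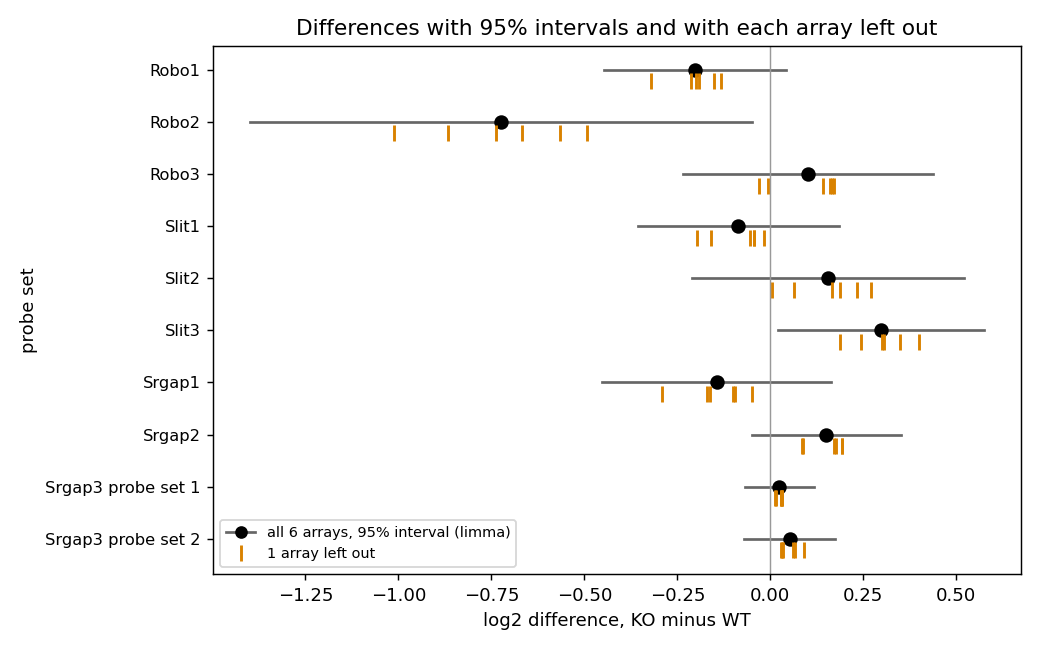
Log2 difference, labelled knockout minus wild type, for each of the 10 probe sets, with the 95% interval of limma's fit on all 6 arrays (black point and grey line) and the difference with each array left out in turn (orange marks). Robo2 stays between -1.01 and -0.49 over the arrays left out, Slit3 between 0.19 and 0.40, and Robo3 falls on both sides of 0.

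Srgap1, an srGAP that acts on Cdc42 downstream of Slit, was at -0.29, 0.19 and -0.20 on arrays KO A, KO B and KO C and at 0.0086, 0.13 and -0.0086 on the WT arrays. As for Robo1, KO A and KO C lay below every WT array and KO B above them all. The difference was -0.14 (SE 0.13, 95% interval -0.45 to 0.16, limma adjusted p = 0.844), and was -0.049 without KO A and -0.29 without KO B. Srgap2, whose product also bends membranes in migrating neurons, was at -0.0089, 0.032 and 0.20 on the KO arrays and at -0.027, 0.0089 and -0.21 in the wild type, a difference of 0.15 (SE 0.083, 95% interval -0.049 to 0.35, limma adjusted p = 0.812). It was 0.087 without KO C and 0.084 without WT C.

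Srgap3, an srGAP that acts on Rac1, varied least. Its first probe set ranged from -0.00091 to 0.036 on the KO arrays and from -0.033 to 0.00091 in the wild type, and the second from -0.047 to 0.070 and from -0.070 to 0.0054. The differences were 0.025 (SE 0.039, 95% interval -0.069 to 0.12, limma adjusted p = 0.926) and 0.052 (SE 0.051, 95% interval -0.071 to 0.18, limma adjusted p = 0.863). With single arrays left out the first ran from 0.013 to 0.031 and the second from 0.029 to 0.090. The 2 probe sets had the same sign, but the first spread over the arrays less than nearly all of the table, with 4.29% of probe sets below its range, against 23.2% for the second. Since levels cannot be seen, whether the first measured a transcript above background is not known.

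Most of the family fell into a pair of array patterns, which were picked out after their values were seen and are given without a test. In the first, KO A and KO C lay below every WT array and KO B did not. Robo1, Robo2, Slit1 and Srgap1 had it, 4 of the 10 probe sets, where 8.24% of all complete probe sets did. In the second, KO C was the highest of the 6 and WT C the lowest, as for Slit2, Slit3 and Srgap2, 3 of the 10 where 5.02% of all did. Robo3 and Srgap3 had neither. With KO B left out, the groups no longer overlapped for Robo1, Robo2, Slit1, Slit3 and Srgap1, 5 of the 10, and over the whole table this held for 27.3% of probe sets. Robo2 was then at -1.01 (SE 0.20), Robo1 at -0.32, Slit1 at -0.20, Slit3 at 0.40 and Srgap1 at -0.29. With KO C left out, an array that has the pattern, they were at -0.49, -0.13, -0.018, 0.19 and -0.094.

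Medians of some marker lists were high or low on the same arrays as these genes, and their part in these patterns was not tested. Cycling progenitor genes were highest on KO A and KO C, the arrays where Robo2 was lowest, and lowest on WT B, where Robo2 was highest. Their median over 11 genes was 0.18, -0.088 and 0.22 on arrays KO A, KO B and KO C and -0.072, -0.54 and 0.034 on WT A, WT B and WT C. All 11 had a positive difference, as 15860 of all 28815 probe sets did, and 0 of them had an unadjusted p under 0.05 in limma. Of the 11, 9 were above every WT array on KO A and KO C and not on KO B, as 8.1% of all complete probe sets were. Differentiated neuron genes had medians of -0.034, -0.0027 and -0.17 on the KO arrays and 0.028, 0.15 and -0.014 in the wild type. Of these genes 10 of 11 were lower, where 45% of all probe sets were. At an unadjusted p under 0.05 in limma 2 of the 11 were lower, where 2.5% of all were. Tubb3, Elavl4, Syt1 and Map2, 4 of those 11, were below every WT array on KO A and KO C and not on KO B, as Robo2 was and as 8.24% of all were. Robo2 was lowest on the array where the neuron median was lowest, KO C, and highest on the array where it was highest, WT B.

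Slit2, Slit3 and Srgap2 peaked on KO C, which had a median of 1.06 over 12 mesenchyme genes, where the other arrays lay between -0.082 and 0.16. Its median over 9 endothelial genes was 0.54, against -0.13 to 0.081 elsewhere. The lowest array for these Slit genes, WT C, had the lowest median of 11 motor neuron genes, at -0.17 where the other arrays lay between -0.0098 and 0.048. On KO C the motor neuron median was 0.015, below the 0.048 of KO B and of WT A. Of the 11 motor neuron genes 6 were higher and 5 lower. WT C was also lowest, and KO C highest, in the median of 11 ventral progenitor genes, at -0.072 and 0.11. Most single genes of these lists did not hold the second pattern, which 5.02% of all complete probe sets held. It was held by 0 of the 12 mesenchyme genes and by 3 of the 9 endothelial genes, Cdh5, Kdr and Tek. Of the 11 motor neuron genes 1 held it, and of the 11 ventral progenitor genes 1 did. Floor plate genes, a source of Slits that the dissection left out, had medians between -0.0043 and 0.13 on the KO arrays and between -0.18 and -0.0061 in the wild type. Of these 8 floor plate genes 7 were higher, as 15860 of all 28815 probe sets were. Of the 8, 4 were higher at an unadjusted p under 0.05 in limma, where 3.07% of all were, and 0 after adjustment.

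**Figure D3:**
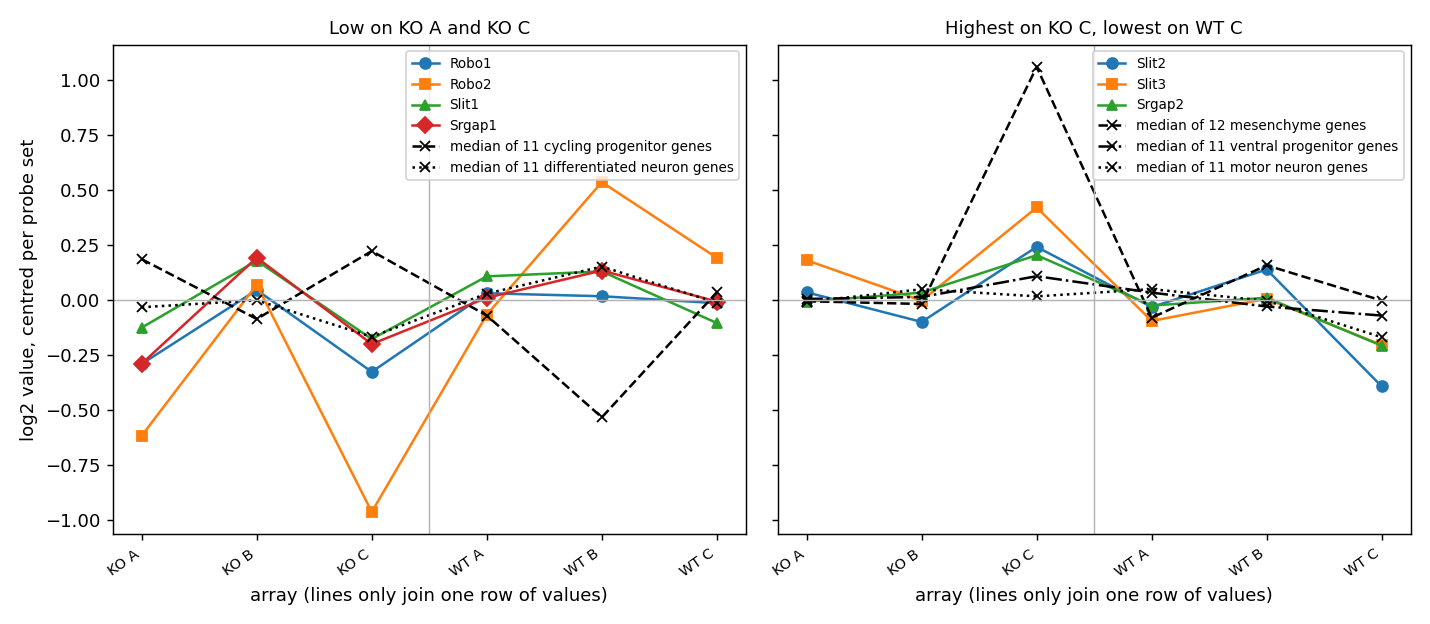
Log2 values, centred per probe set, on each array for Robo1, Robo2, Slit1 and Srgap1 (left) and for Slit2, Slit3 and Srgap2 (right), with the medians of the marker lists in black. On the left KO A and KO C lie below the wild type and cycling progenitor genes are high there, and on the right KO C is highest and WT C lowest, with the mesenchyme median at 1.06 on KO C.

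Neural crest and Schwann cell precursor genes had medians from -0.10 to 0.093 on the KO arrays and from -0.0073 to 0.069 in the wild type. Dorsal root ganglion genes, whose sensory neurons also carry Robo2, lay between -0.00025 and 0.077 and between -0.067 and 0.0090, with 5 of 9 higher. Dorsal cord genes lay between -0.019 and -0.0046 and between -0.033 and 0.044, with 5 of 10 higher. Embryonic red cell genes lay between -0.025 and 0.13 on the KO arrays and between -0.67 and 0.20 in the wild type. Macrophage genes lay between -0.17 and 0.093 and between -0.083 and 0.073. The arrays with high Xist were both in the KO group, so a term for them leaves the genotype difference to KO A against the wild type, with that array assumed to vary like the others. With that term Robo2 was at -0.84 (SE 0.43, limma adjusted p = 0.851) and Slit3 at 0.28, with unadjusted p of 0.106 and 0.173 in limma. Robo3 moved to 0.36, Srgap1 to -0.34, Slit1 to -0.17 and Srgap2 to 0.067.

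Other genes of the pathway, a list of 39 with co-receptors, ligands of other kinds, regulators of Robo turnover and signalling proteins, had 37 members measured. Their median difference was -0.024, with 15 higher and 22 lower, where 45% of all probe sets were lower, and 0 passed after adjustment in limma. At an unadjusted p under 0.05 in limma 1 of the 37 was higher and 0 were lower, where 3.07% and 2.5% of all probe sets were. That gene was Abl1, the tyrosine kinase that phosphorylates Robo. It stood at 0.19, -0.0062 and 0.21 on arrays KO A, KO B and KO C and at -0.12, 0.0062 and -0.085 on the WT arrays, a difference of 0.20 (SE 0.073, limma adjusted p = 0.812). Like Slit3 it was high on KO A and KO C and near the wild type on KO B.

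Lower with the lowest p were Pak3, a kinase activated by Rac1 and Cdc42, and Nell2, a ligand of Robo3. Pak3 was at -0.21, 0.041 and -0.40 on the KO arrays and at 0.0031, 0.11 and -0.0031 in the wild type, a difference of -0.23 (SE 0.11, limma adjusted p = 0.812). Nell2 was at -0.10, 0.014 and -0.11 and at 0.042, 0.11 and -0.014, a difference of -0.11 (SE 0.057, limma adjusted p = 0.812). Both were below every WT array on KO A and KO C, as Robo1 and Robo2 were. That array pattern, held by 8.24% of all complete probe sets, was seen in 10 of the 37, namely Nell2, Flrt3, Dcc, Cdh2, Gpc1, Ndfip1, Pak3, Enah, Evl and Arhgap39. Enah and Evl encode actin regulators of the Ena and VASP family, a partner of Robo, Dcc is the netrin receptor that Robo1 silences, and Arhgap39 is a GTPase-activating protein that binds Robo. They were named after their values were seen. Vasp, of the same family as Enah and Evl, did not have the pattern: it was at -0.029, 0.012 and 0.063 on arrays KO A, KO B and KO C and at -0.13, -0.012 and 0.013 in the wild type. Its difference was 0.059, beside -0.065 for Enah and -0.045 for Evl, and none of these passed the test.

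The genes with values nearest to those of Robo2 were taken by the root mean square difference over the 6 arrays, among 17206 genes. Mdga2, an adhesion protein anchored to the membrane of neurons, was nearest at 0.083, followed by the neuronal calcium sensor gene Vsnl1 at 0.11, Mpped2 at 0.13, Zfp804a at 0.13 and the thyroid hormone receptor gene Thra at 0.13. Mdga2 stood at -0.77, -0.011 and -0.97 on arrays KO A, KO B and KO C and at 0.011, 0.59 and 0.15 in the wild type. Its difference was -0.83 (SE 0.27), and those of the other 4 lay between -0.78 and -0.53. They were chosen for being near to Robo2, so their differences have no test here.

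**Figure D4:**
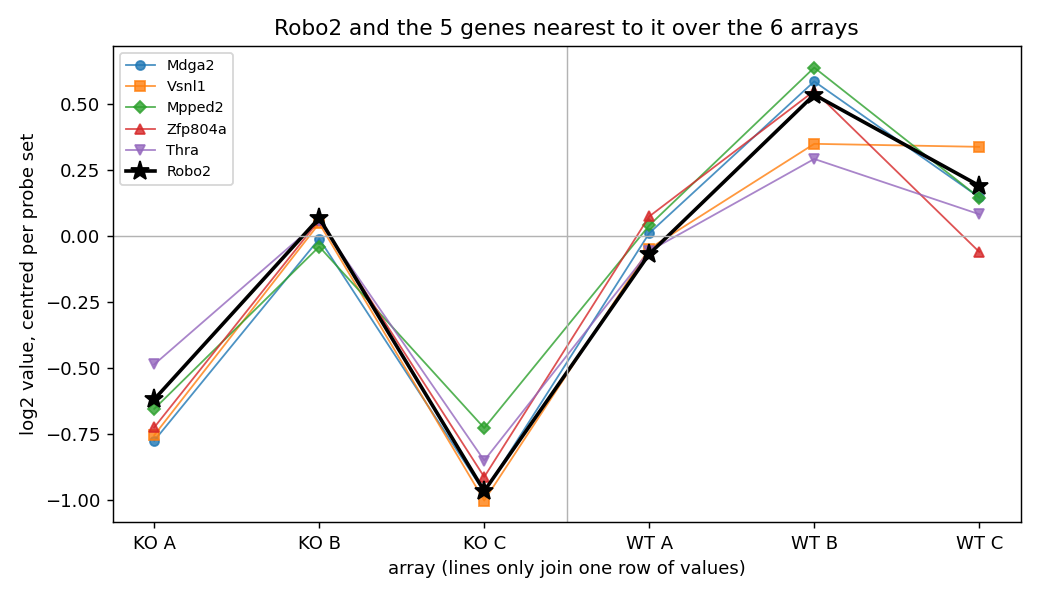
Log2 values, centred per probe set, of Robo2 (black stars) and the 5 genes nearest to it by root mean square difference over the 6 arrays. All 6 are lowest on KO A and KO C, and Robo2 and Mdga2 differ by 0.083.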

How the data were processed

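RNA isolated with a column kit went through whole-transcriptome amplification and biotin labelling, per the labels' protocols. The authors made the deposited log2 values with RMA, per the submitters' processing notes (the sources used here name no version or settings). The base was taken as 2, that of RMA. The median of all 28791 complete probe sets was 0 within 1e-06, so the values were centred per probe set; 24 probe sets lacked a value on wild-type C.

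Genotype was fitted as the only term over all probe sets with limma 3.58.1 in R 4.3.3, two-sided, with Benjamini-Hochberg adjustment. SDs are over 3 arrays and SEs are limma's. The same script was also run on simulated data with independent noise on each array. Patterns shared between arrays, as seen here, were not simulated, so that run does not cover them. Named were all 9 genes, Nkx2-9, pathway genes of lowest p and, for the largest difference, the 5 nearest genes, without predicted genes, clone names, smell receptors or small RNAs. Lists used 1 probe set per gene, the one with most accessions. Members and lists were chosen with earlier results of these data known. Alternatives were the letter as a block, quantile normalization, median centring, array weights, a robust prior, an unequal-variance test, an Xist term, 1 probe set per gene and leaving out each array. Promoters came from RefSeq (GRCm38.p6), of which the first 250 bases were used. Figures used matplotlib 3.10.9 in Python 3.11.15.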

Additional observations from a re-analysis of the deposited data

How the results depend on the processing

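Over 139 values of the 10 probe sets under the alternatives 2 changed sign, both of Robo3, whose difference ran from -0.030 to 0.17 with single arrays left out. Many of these values could not change sign. The replicate block, the robust prior, the unequal-variance test and 1 probe set per gene leave the difference itself as it was. Median centring shifts every difference by the same small amount. The adjusted p of Robo2 lay between 0.348 and 0.996 and that of Slit3 between 0.360 and 0.996. Probe sets past an adjusted p of 0.05 numbered 0 to 5 with single arrays left out, 5 of them without KO A, and 0 under each other alternative. The count of Slit and Robo probe sets whose groups did not overlap ran from 0 to 5 of the 10 with single arrays left out, where fewer arrays make this easier. Over the whole table the share ran from 17.9% without WT B to 27.3% without KO B. The count of Slit and Robo probe sets was 0 with both other scalings. Counts at an unadjusted p under 0.05 moved from 1605 to 2552 with the letter as a replicate block, 928 with the unequal-variance test, 2871 without KO B and 977 without WT B.

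The letters went with likeness between arrays for A and B but not for C. Deviations of arrays with the same letter correlated at 0.16 for A, 0.22 for B and 0.016 for C. Those of different letters correlated between -0.19 and 0.044, and 4 of 6 arrays correlated best with their own letter. Deviations were taken from the mean of each group and so cancel out within it. A positive value for the same letter therefore pulls those of different letters down, and these are not an independent comparison. With the replicate block Robo2 was at -0.72 (SE 0.15, limma adjusted p = 0.418) and no Slit or Robo probe set passed. The unadjusted limma p of Robo2 fell from 0.0392 to 0.0061 with that block, and that of Slit3 rose from 0.0386 to 0.0741. Srgap3 probe set 1 had no value with 1 probe set per gene. Signal over background could not be judged, since the values hold no level.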
